A study of Homo sapiens with 33 samples.

Results

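Thioredoxin-interacting protein (TXNIP), its relatives of the alpha-arrestin family and the thioredoxin system were described by their transcripts in acute lymphoblastic leukaemia (ALL) cell lines. The set was chosen by gene symbol and holds 9 of the 62446 gene rows: TXNIP, ARRDC1, ARRDC2, ARRDC3, ARRDC4, TXN, TXN2, TXNRD1 and TXNRD2. All 9 were matched to 1 row each and passed the filter on low counts in every comparison. RNA sequencing covered 33 libraries, 3 in each of 11 groups, from Nalm6 (a B-cell precursor ALL line), Nalm6 cells labelled as a TLE1 knockout (TLE1 encodes a transcriptional co-repressor) and CEM (a T-cell ALL line). CHIR-99021 blocks GSK3, a kinase that restrains Wnt signalling. Parental Nalm6 was sequenced with CHIR-99021 at 0.5 µM, with the glucocorticoid prednisolone at 5 µM and with the glucocorticoid dexamethasone at 100 nM. It has 2 untreated groups, of which the title of 1 names it as the dexamethasone control (the dexamethasone set below); the other, the first set, served as control for CHIR-99021 and prednisolone. No title ties the prednisolone libraries to either untreated group, so results on the 9 genes that rest on them were also computed with the dexamethasone control, an alternative chosen after seeing the data. In the order of deposit the prednisolone-treated Nalm6 libraries stand with the dexamethasone set. Their shares of reads counted to no gene feature (27.9%, 32.7% and 26.3%) were nearer the first set (26.7%, 28.3% and 26.4%) than the dexamethasone control (19.7%, 19.2% and 19.6%). The set they belong to is thus not settled. The knockout was sequenced untreated, with prednisolone at 5 µM and with dexamethasone at 100 nM, and by title this last group has no untreated group of its own. CEM was sequenced untreated, with CHIR-99021 at 2 µM and with prednisolone at 10 µM. All treatments lasted 24 h. Nalm6 and knockout cells were grown in medium with charcoal-stripped serum, which is depleted of steroids; the medium of CEM, and whether the knockout is 1 clone, are not given in the sources used here.

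TXNIP binds the reduced form of thioredoxin and inhibits it, and it also promotes the removal of glucose transporters from the cell surface. Its gene is switched on by the glucose-sensing factor MondoA (gene MLXIP) and is a known target of glucocorticoids in lymphoid cells. The ARRDC proteins share the arrestin fold of TXNIP, and several of them bring ubiquitin ligases of the NEDD4 family to membrane proteins. Thioredoxin (TXN in the cytosol, TXN2 in mitochondria) reduces protein disulphides, and the thioredoxin reductases TXNRD1 and TXNRD2 restore it with electrons from NADPH.

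Promoter windows from RefSeq (GRCh38.p14) were available for 8 of the 9 genes. Those of TXNIP, ARRDC3 and ARRDC4 are shown, because they hold the matches to the E-box, forkhead or glucocorticoid receptor motifs that were found upstream of these genes. Each line gives the 250 bases before an annotated start, 5′ to 3′ on the strand of the gene, and capitals mark the matches.
TXNIP, chr1:145996580-145996829, minus strand: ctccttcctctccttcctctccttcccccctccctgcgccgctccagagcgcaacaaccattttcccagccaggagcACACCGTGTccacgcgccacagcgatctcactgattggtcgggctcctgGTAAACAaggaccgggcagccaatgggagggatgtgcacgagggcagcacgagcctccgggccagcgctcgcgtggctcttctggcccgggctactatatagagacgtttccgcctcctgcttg
ARRDC3, second annotated start, chr5:91380098-91380347, minus strand: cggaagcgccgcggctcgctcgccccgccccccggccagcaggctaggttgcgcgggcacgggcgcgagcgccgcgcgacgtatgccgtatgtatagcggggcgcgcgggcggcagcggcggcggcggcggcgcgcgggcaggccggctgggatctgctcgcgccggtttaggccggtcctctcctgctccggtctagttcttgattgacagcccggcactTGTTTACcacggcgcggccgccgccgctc
ARRDC4, chr15:97960453-97960702, plus strand: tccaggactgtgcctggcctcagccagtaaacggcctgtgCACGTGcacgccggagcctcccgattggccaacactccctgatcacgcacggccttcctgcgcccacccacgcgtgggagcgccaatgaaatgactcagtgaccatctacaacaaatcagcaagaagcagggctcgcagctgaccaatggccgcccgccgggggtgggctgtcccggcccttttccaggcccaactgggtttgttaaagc
The window of the first annotated TXNIP start holds the forkhead letters GTAAACA at 124 bases before the start and a match to ACANNNTGT, the core of the glucocorticoid receptor element, at 173 bases before it; the window of the second TXNIP start holds no match to a motif searched. The ARRDC3 window holds the forkhead letters on the other strand at 29 bases before the start, and the ARRDC4 window holds the E-box CACGTG at 210 bases before it. Both strands were searched in 300-base windows that run from 250 bases before to 50 after a start. Of 35116 such windows, 7.26% hold CACGTG, 5.37% hold ACANNNTGT and 3.42% hold GTAAACA. The core of the NRF2 element, TGANNNNGC, was searched too, and 41.8% of all windows hold it. Of the 8 genes with windows, only TXN had no match to it, and its matches are not in capitals above. It was matched 152 bases before the first TXNIP start. For TXNRD1 it was matched 99 and 8 bases before the first start and 198 and 102 before the second. These are matches of the letters given, so variant forms of a motif, as of the E-box, were not looked for. Binding was not measured.

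Libraries held between 25292579 and 61930057 gene counts. Levels are in CPM, counts per 1000000 gene counts. In untreated Nalm6 the TLE1 transcript was at 30.2, 34.0 and 31.8 CPM, and in the untreated libraries labelled knockout at 25.4, 24.0 and 24.0 CPM, so the transcript was present. With glucocorticoid the labelled knockout held 54.5, 69.0 and 64.1 CPM (prednisolone) and 57.5, 55.3 and 59.0 CPM (dexamethasone), above every untreated parental library and below the 110.0 to 134 CPM of parental cells with glucocorticoid; counts over a whole gene do not check a small edit, and protein was not analysed here. All 8 B-cell precursor markers were above 1 CPM in every Nalm6 and knockout library and all 8 T-cell markers in every CEM library. Of the markers of the opposite lineage, BCL11B reached 7.03 CPM in Nalm6, and 4 were above 1 CPM in every CEM library: MME (93.9 to 186 CPM), CD79A (21.3 to 60.5 CPM), VPREB1 (9.45 to 11.7 CPM) and CD79B (4.81 to 7.19 CPM). Summed markers of myeloid, erythroid, epithelial and stromal cells did not pass 7.98 CPM in any library. Glucocorticoid treatment left its usual mark: 5 of 5 check genes rose in Nalm6 under either glucocorticoid and in the knockout under prednisolone, and 4 of 4 tested in CEM, beside 28.7% (prednisolone) and 30.2% (dexamethasone) of all genes higher in Nalm6, 19.8% in the knockout and 22.3% in CEM. Among them TSC22D3, which encodes the glucocorticoid-induced leucine zipper, went from 21.6 ± 1.93 to 348 ± 24.3 CPM (mean ± SD, n = 3, here and below) under prednisolone in Nalm6. ZBTB16, another of the 5, stood at only 0.0714 ± 0.0294 and 0.0243 ± 0.0224 CPM in the untreated Nalm6 sets. In Nalm6 it passed the filter on low counts only through the treated libraries, so it could only rise and does not add to the check. In bulk RNA, a change in transcript per cell and a change in the share of cells that hold it cannot be told apart.

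TXNIP rose more than any other gene of the set in each of the 4 comparisons of glucocorticoid-treated with untreated cells, and in untreated cells it stood at nearly the same level in all lines. In the first untreated set of Nalm6 it stood at 75.3, 76.3 and 77.0 CPM, and with prednisolone at 592, 656 and 665 CPM. With dexamethasone it reached 881, 945 and 929 CPM, from 78.3, 70.9 and 67.6 CPM in the untreated libraries of that set. The treated and untreated libraries were far apart in both comparisons, and the lowest treated library held several times the level of the highest untreated one. The log2 fold change was 3.04 ± 0.05 (± SE, here and below; 8.21-fold) with prednisolone (edgeR adjusted p = 6.50e-18). It was 3.63 ± 0.06 (12.4-fold) with dexamethasone (edgeR adjusted p = 4.96e-15). The glucocorticoids were given at different doses and were not compared.

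In the knockout the same gene started from 72.8, 63.2 and 72.4 CPM. Prednisolone took it to 289, 299.9 and 279 CPM, and dexamethasone libraries of the knockout stood at 312, 315 and 323 CPM. These libraries lay above every untreated library and below every glucocorticoid-treated library of the parental line. The log2 fold change with prednisolone was 2.02 ± 0.07 (4.05-fold; edgeR adjusted p = 2.40e-08). In CEM, TXNIP stood at 78.6, 78.4 and 75.0 CPM untreated and at 242, 254 and 262 CPM with prednisolone, a log2 fold change of 1.68 ± 0.03 (3.20-fold; edgeR adjusted p = 1.07e-16). The order of the 11 group means ran from parental dexamethasone (918 ± 33.4 CPM) through parental prednisolone (638 ± 39.4 CPM), knockout dexamethasone (317 ± 5.67 CPM) and knockout prednisolone (289 ± 10.3 CPM) to CEM prednisolone (253 ± 10.1 CPM). Neighbours among these 5 did not overlap. The other 6 groups lay between 65.9 ± 5.63 and 79.2 ± 4.65 CPM, and each overlapped its neighbour in the order.

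**Figure D1:**
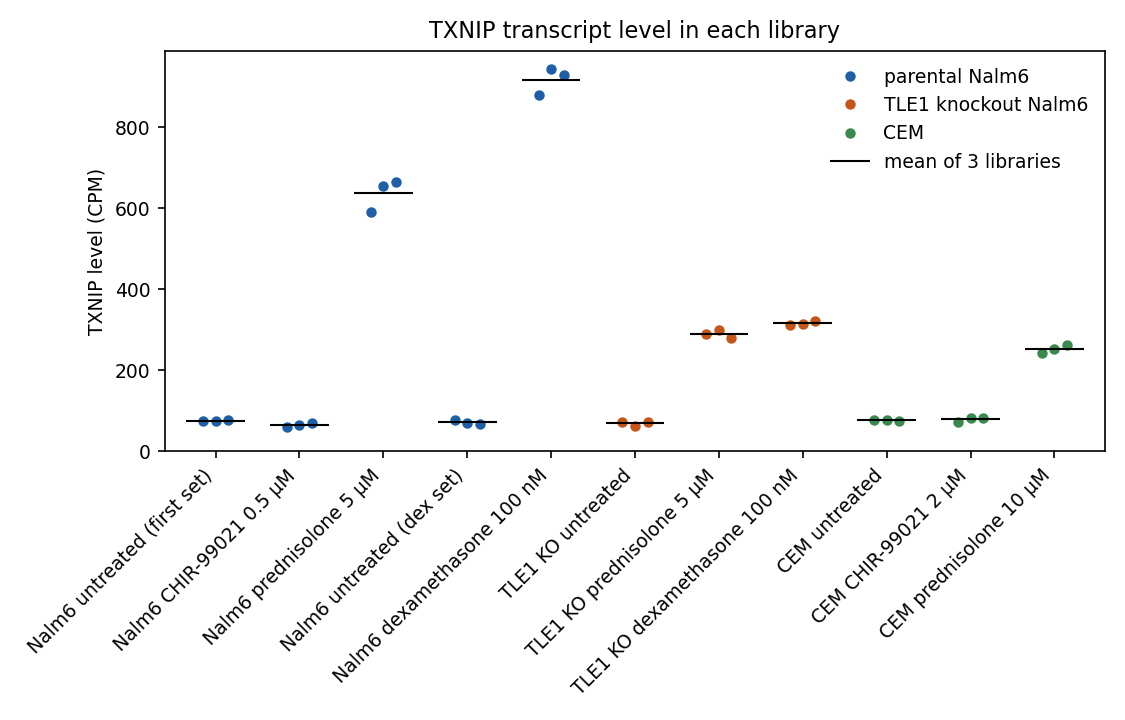
TXNIP level in CPM (linear axis) in each of the 33 libraries by group; points are libraries, colours are cell lines and lines are group means. The 15 glucocorticoid-treated libraries lie between 242 and 945 CPM and the other 18 between 60.2 and 81.9 CPM.

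The prednisolone response of TXNIP was smaller in the knockout than in parental Nalm6 at the same dose and time. The difference of the log2 fold changes was -0.99 ± 0.09, that is 0.502 times the parental fold (edgeR adjusted p = 6.22e-06), and it was -0.99 with the dexamethasone control for parental cells too, and again called. TXNIP was the 1 gene of the 9 called in this contrast, where 3.48% of all genes tested were called, 2.38% in the lower direction. Of the 5 glucocorticoid check genes, 2 were called, both smaller in the knockout: FKBP5 (-0.64 ± 0.10, edgeR adjusted p = 0.00135) and PER1 (-0.53 ± 0.12, adjusted p = 0.0239). The other values were 0.41 ± 0.11 for TSC22D3 (adjusted p = 0.0541), -0.30 ± 0.17 for KLF9 and 0.07 ± 0.38 for ZBTB16. The other 8 differences ran from -0.26 ± 0.12 for TXN (edgeR adjusted p = 0.294) to 0.08 ± 0.10 for ARRDC1. With the dexamethasone control for parental cells ARRDC1 was called as well, at 0.34. TXN2, at -0.18 ± 0.11, was called when replicate 3 of the untreated knockout was left out (-0.29, edgeR adjusted p = 0.0364). Before treatment, TXNIP differed little between knockout and parental cells (-0.11 ± 0.06, edgeR adjusted p = 0.205), although the call was made without replicate 3 of the untreated knockout (-0.15, adjusted p = 0.049).

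Among dexamethasone-treated libraries, TXNIP was 1.52 ± 0.03 lower on the log2 scale in the knockout than in the parental line, or 0.348 times its level (edgeR adjusted p = 6.36e-19). Of the 9 genes, 7 were called there, 6 lower and 1 higher, beside 56.6% of all genes tested (28.1% lower). The 5 glucocorticoid check genes were also lower in the treated knockout, with a median of -1.20; the part of a general difference in glucocorticoid response in the TXNIP value was not tested. Taking away the untreated difference between the lines left -1.42 ± 0.07 for TXNIP (edgeR adjusted p = 9.76e-10), with 5 of the 9 genes called, 4 lower and 1 higher, beside 30.3% of all genes (13.7% higher and 16.6% lower). That contrast was added after the data were seen. It sets libraries of different sets against each other, and the untreated Nalm6 sets alone differed in 50.2% of genes tested (25.8% higher and 24.4% lower), including ARRDC1, ARRDC4 and TXNRD1 of the 9 genes. If the knockout dexamethasone libraries belong to the second set and its difference from the first is taken away, the dexamethasone response of TXNIP in the knockout was 2.22 ± 0.09 (edgeR adjusted p = 6.14e-11). Under that assumption 5 of the 9 genes were called, beside 40.0% of all genes: TXNIP and TXNRD2 (0.36 ± 0.10) higher, and ARRDC3 (-1.13 ± 0.11), TXNRD1 (-0.69 ± 0.07) and TXN (-0.46 ± 0.12) lower. The TXNIP difference between these untreated sets was -0.01 ± 0.05 (edgeR adjusted p = 0.864).

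**Figure D2:**
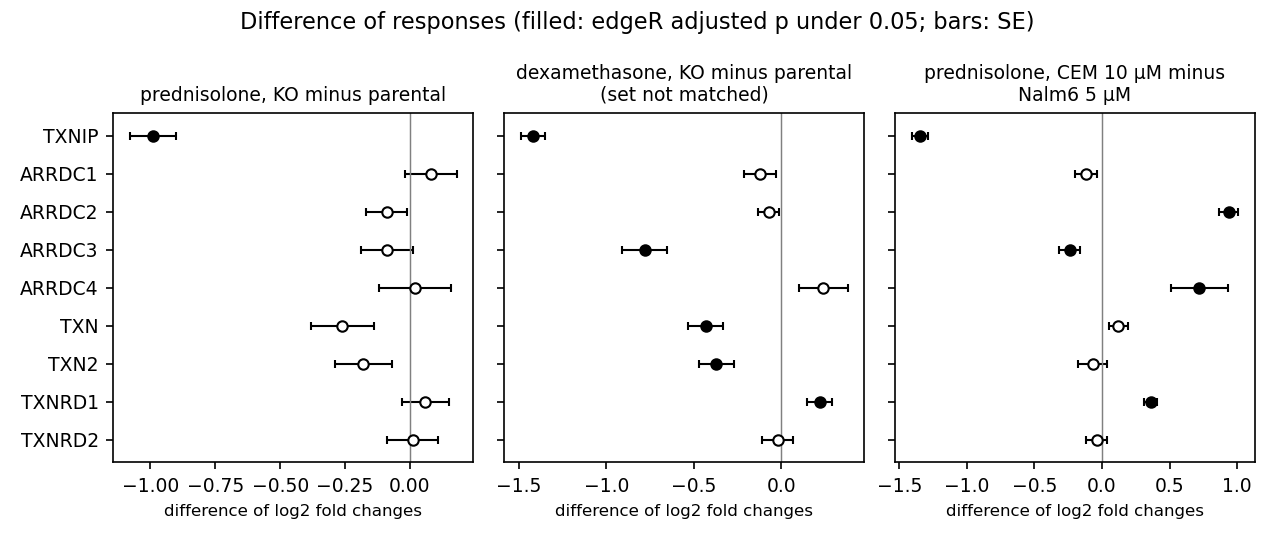
Difference between responses (log2 scale, points; bars are SE) for the 9 genes, with filled points for an edgeR adjusted p under 0.05 and a separate horizontal scale in each panel. TXNIP lies furthest below 0 in each panel, at -0.99, -1.42 and -1.35, and ARRDC2 lies at 0.94 in the contrast of CEM with Nalm6.

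Under prednisolone in parental Nalm6, 5 of the 9 genes were called, 3 higher and 2 lower, beside 54.8% of all genes tested (28.7% higher and 26.1% lower). Under dexamethasone 7 were called, 4 higher and 3 lower, beside 60.5% (30.2% in each direction). In the knockout with prednisolone 6 were called, 3 in each direction, beside 41.7% (19.8% higher and 21.9% lower). In CEM with prednisolone 6 were called, 4 higher and 2 lower, beside 45.1% (22.3% higher and 22.8% lower). The share of the 9 genes called was thus near that of all genes with prednisolone in Nalm6 and above it in the other 3 comparisons, and with 9 genes no test of that was made. The median log2 fold change of the 9 genes was 0.05, 0.07, -0.06 and 0.09 in these comparisons, against 0.03, 0.02, 0.00 and 0.02 over all genes tested.

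**Figure D3:**
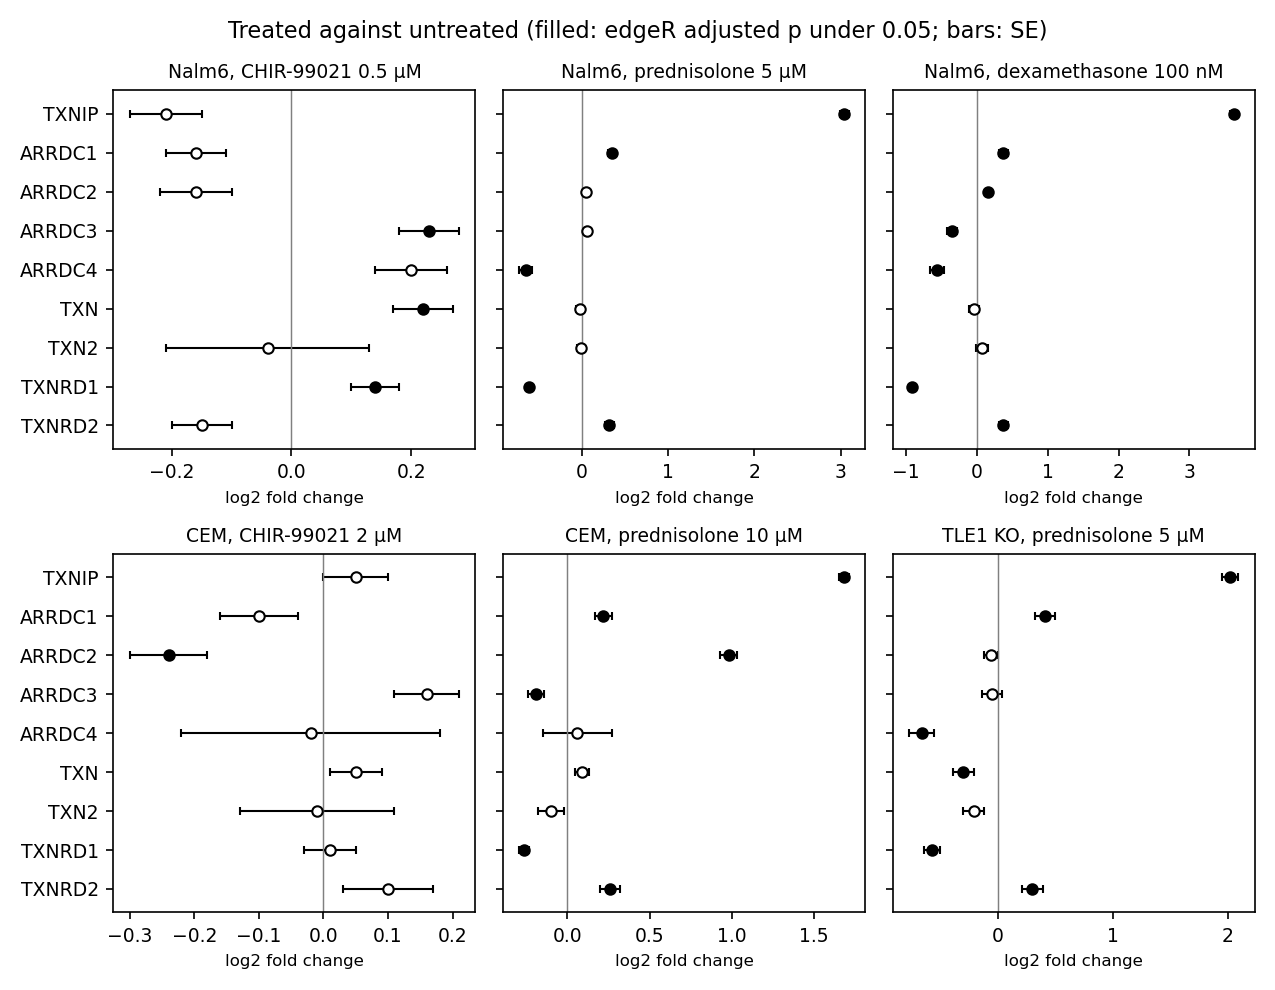
Log2 fold change of each of the 9 genes, treated against untreated (points; bars are SE), in 6 comparisons, with filled points for an edgeR adjusted p under 0.05 and a separate horizontal scale in each panel. TXNIP is the rightmost point in the 4 glucocorticoid panels, at 3.04, 3.63, 1.68 and 2.02, while no gene passes 0.25 in either direction in the CHIR-99021 panels.

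The other alpha-arrestins moved in different directions. ARRDC1, an adaptor that also drives budding of vesicles from the plasma membrane, rose by a small amount in each of these 4 comparisons, although in parental Nalm6 with prednisolone the call depended on the control. It went from 24.4, 27.0 and 27.2 to 32.8, 33.5 and 35.7 CPM with prednisolone in Nalm6, with no overlap (log2 fold change 0.35 ± 0.05, edgeR adjusted p = 2.57e-05). Against the dexamethasone control, at 26.8, 30.3 and 32.1 CPM, the change was 0.08 and not called (adjusted p = 0.299). The log2 fold change of ARRDC1 was 0.37 ± 0.06 with dexamethasone, 0.41 ± 0.09 with prednisolone in the knockout and 0.22 ± 0.05 in CEM, all called. With dexamethasone in the knockout, the set difference removed, it was 0.26 ± 0.11 (edgeR adjusted p = 0.0718). Among dexamethasone-treated libraries ARRDC1 stood at 30.7 ± 1.21 CPM in the knockout and 39.4 ± 1.01 CPM in the parental line (-0.35 ± 0.04, edgeR adjusted p = 5.81e-07).

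ARRDC2 depended on the cell line. It stood at 68.4, 71.5 and 72.0 CPM in untreated Nalm6 and at 16.0, 16.9 and 17.7 CPM in untreated CEM. Against the untreated Nalm6 libraries of the dexamethasone set, which were the control fixed for CEM, the log2 difference was -2.01 ± 0.05 (0.249-fold; edgeR adjusted p = 7.54e-13). Prednisolone raised it in CEM to 34.6, 34.2 and 33 CPM, above every untreated CEM library and below every Nalm6 library (log2 fold change 0.98 ± 0.05, edgeR adjusted p = 3.15e-11). In Nalm6 the prednisolone change was 0.05 ± 0.04 (edgeR adjusted p = 0.326) and in the knockout -0.06 ± 0.06. The responses of CEM at 10 µM and Nalm6 at 5 µM differed by 0.94 ± 0.07 (edgeR adjusted p = 6.19e-11), and line and dose cannot be told apart in that value. It was 1 of 5 of the 9 genes called in that contrast, 3 higher and 2 lower in CEM, beside 26.9% of all genes tested (14.7% higher and 12.2% lower). TXNIP rose less in CEM, by -1.35 ± 0.06 (edgeR adjusted p = 1.77e-14), and for ARRDC3 the difference was -0.24 ± 0.08, a call lost without replicate 2 or 3 of untreated Nalm6 (-0.22 and -0.20) or replicate 1 of treated CEM (-0.17), and with all 33 libraries in 1 fit (-0.25, adjusted p = 0.102). Dexamethasone raised ARRDC2 in Nalm6 by 0.16 ± 0.04 (edgeR adjusted p = 0.00438). It was 0.12 lower on the log2 scale in dexamethasone-treated knockout than parental libraries, a call that was lost without replicate 2 of that knockout group (-0.09, adjusted p = 0.0703) and with all 33 libraries in 1 fit (-0.10, adjusted p = 0.151).

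ARRDC3, an adaptor in the turnover of the beta-2 adrenergic receptor and of integrin beta-4, was low in the dexamethasone-treated libraries. It fell in Nalm6 from 37.8, 40.9 and 37.1 to 27.8, 35.1 and 29.5 CPM (log2 fold change -0.36 ± 0.07, edgeR adjusted p = 6.43e-04). The dexamethasone-treated knockout held 18.7, 21.6 and 19.7 CPM, below every other library of the series. It was lower there than in treated parental cells by -0.61 ± 0.07 (edgeR adjusted p = 3.30e-07). Prednisolone-treated Nalm6 held 46.5, 46.3 and 45.7 CPM of ARRDC3 and untreated Nalm6 46.5, 42.5 and 40.9 CPM, so these groups touched. Its log2 fold change was 0.06 ± 0.05 in Nalm6 (edgeR adjusted p = 0.295). ARRDC3 was called there without replicate 1 of the controls (0.12) and with the dexamethasone control (0.14, adjusted p = 0.0308). It was -0.05 ± 0.09 in the knockout and -0.19 ± 0.05 in CEM (edgeR adjusted p = 0.00546).

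ARRDC4, like TXNIP a target of MondoA that curbs glucose uptake, fell with prednisolone in both Nalm6 lines and with dexamethasone in the parental line. It went from 11.4, 12.0 and 11.7 to 6.72, 7.84 and 8.04 CPM with prednisolone in Nalm6, with no overlap (log2 fold change -0.65 ± 0.07, edgeR adjusted p = 1.02e-06). With the dexamethasone control the change was -0.37 (adjusted p = 0.00355). The log2 fold change was -0.57 ± 0.10 with dexamethasone (edgeR adjusted p = 1.45e-04) and -0.66 ± 0.11 with prednisolone in the knockout (edgeR adjusted p = 9.57e-04). With dexamethasone in the knockout, the set difference removed, ARRDC4 was at -0.33 ± 0.14 and not called (adjusted p = 0.0672). Knockout cells held less ARRDC4 already when untreated, at 6.85, 7.65 and 8.12 CPM (-0.61 ± 0.08 against parental cells, edgeR adjusted p = 6.83e-04). That was 1 of 2 genes called between untreated knockout and parental cells, beside 27.1% of all genes tested (15.3% higher and 11.8% lower). The untreated parental sets themselves differed by -0.31 ± 0.07 in ARRDC4 (edgeR adjusted p = 0.00483). In CEM the gene stood at about 1 CPM in all groups, with as few as 26 counts in a library, and its prednisolone change of 0.06 ± 0.21 (edgeR adjusted p = 0.844) was poorly resolved. The prednisolone responses of CEM and Nalm6 differed by 0.72 ± 0.21 (edgeR adjusted p = 0.011), and this call was lost without replicate 2 of the treated CEM group (0.62, adjusted p = 0.059) and with the dexamethasone control for Nalm6 (0.43, adjusted p = 0.151).

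**Figure D4:**
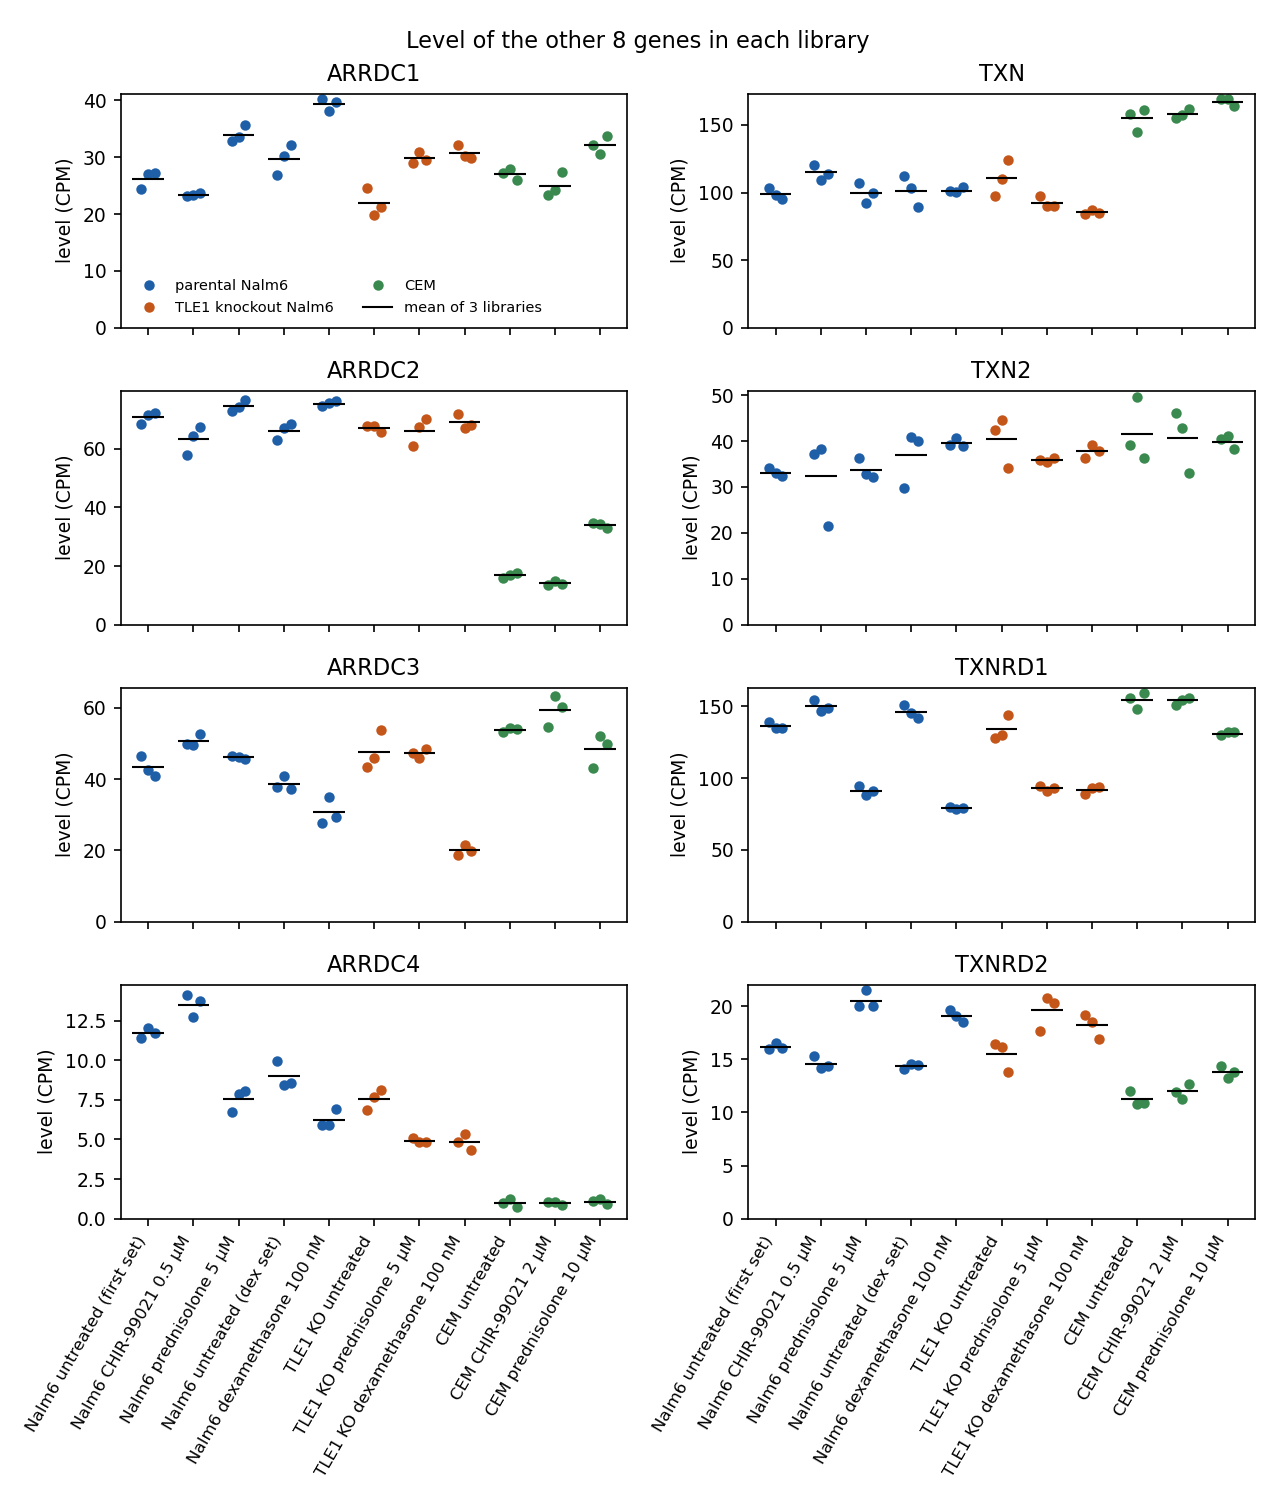
Level of the other 8 genes in CPM (linear axes that start at 0) in each of the 33 libraries by group; points are libraries, colours are cell lines and lines are group means. TXNRD1 is lower with glucocorticoid in every line, ARRDC2 and ARRDC4 are lowest in CEM, and ARRDC3 is lowest in the dexamethasone-treated knockout.

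Thioredoxin itself was not called with glucocorticoid in the parental line or CEM in the fits as designed, and was lower with glucocorticoid in the knockout. TXN stood at 103, 98.1 and 94.9 CPM in untreated Nalm6 and at 107, 91.9 and 99.5 CPM with prednisolone, and these groups overlapped (-0.02 ± 0.05, edgeR adjusted p = 0.808). In CEM prednisolone gave 0.09 ± 0.04 (edgeR adjusted p = 0.0743), called without replicate 3 of its controls (0.11). With dexamethasone the change was -0.04 ± 0.07 (edgeR adjusted p = 0.638), called without replicate 3 of its controls (-0.13, adjusted p = 0.0325). In the knockout TXN fell from 97.4, 109.7 and 124 to 97.7, 89.8 and 89.7 CPM with prednisolone, groups that overlapped (-0.30 ± 0.09, edgeR adjusted p = 0.025). That call was lost without replicate 2 or 3 of the controls (-0.31, adjusted p = 0.0597, and -0.20, adjusted p = 0.0507) or of the treated group (-0.27 with adjusted p = 0.101, and -0.27 with adjusted p = 0.0881). The difference between the prednisolone responses of knockout and parental cells was not called (-0.26 ± 0.12, edgeR adjusted p = 0.294). With dexamethasone in the knockout, the set difference removed, TXN changed by -0.46 ± 0.12 (edgeR adjusted p = 0.00526), a call made in 20 of 20 alternatives. Among dexamethasone-treated libraries it stood at 85.4 ± 1.67 CPM in the knockout and 101 ± 1.86 CPM in parental cells (-0.24 ± 0.03, edgeR adjusted p = 3.21e-06). Less the untreated difference this came to -0.43 ± 0.10 (adjusted p = 0.00322), also called in 20 of 20 alternatives. Untreated CEM held more TXN than untreated Nalm6 (155 ± 8.75 against 101 ± 11.1 CPM; 0.57 ± 0.07, edgeR adjusted p = 8.88e-06).

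The ratio of TXNIP to TXN counts in a library followed TXNIP. It was 0.733, 0.778 and 0.812 in untreated Nalm6 and 5.52, 7.14 and 6.68 with prednisolone. With dexamethasone it was 8.76, 9.44 and 8.97, in the prednisolone-treated knockout 2.96, 3.34 and 3.11, and in prednisolone-treated CEM 1.43, 1.51 and 1.60. Every glucocorticoid-treated library had more TXNIP than TXN counts, and every other library had fewer. Counts depend on transcript length, and per kilobase of exon untreated Nalm6 held 86.3 ± 3.42 CPM of TXN, 21.0 ± 0.240 of TXNIP, 20.3 ± 0.374 of TXNRD1 and 16.2 ± 0.441 of TXN2. On that scale ARRDC2 followed at 15.2 ± 0.422, ARRDC3 at 8.78 ± 0.584, ARRDC1 at 6.86 ± 0.404, ARRDC4 at 2.87 ± 0.0689 and TXNRD2 at 1.94 ± 0.0317 CPM per kilobase. The lengths merge all annotated exons of a gene, 8373 bases for TXNRD2 and 4072 for ARRDC4, and the order depends on them. In CPM, TXNRD2 (16.2 ± 0.266) stood above ARRDC4 (11.7 ± 0.281). Protein was not analysed here.

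The reductases moved in opposite directions. TXNRD1, the cytosolic enzyme, fell from 139, 135 and 135 to 94.7, 87.9 and 91.1 CPM with prednisolone in Nalm6 (-0.61 ± 0.04, edgeR adjusted p = 8.93e-10). With dexamethasone it fell from 151, 145 and 142 to 79.6, 78.7 and 79.2 CPM (-0.92 ± 0.04, 0.528-fold, edgeR adjusted p = 1.88e-10). The treated groups were tight and lay well below their controls. TXNRD1 fell in the knockout by -0.57 ± 0.07 (edgeR adjusted p = 8.73e-05), and also in CEM, by -0.26 ± 0.03 (adjusted p = 2.63e-06), where it went from 156, 148 and 159 to 130.1, 132 and 132 CPM. The fall in CEM was smaller than in Nalm6, by 0.36 ± 0.05 at the unequal doses (edgeR adjusted p = 1.08e-05). TXNRD2, the mitochondrial enzyme, rose from 16.0, 16.5 and 16.1 to 20.0, 21.5 and 20.0 CPM with prednisolone in Nalm6 (0.32 ± 0.05, edgeR adjusted p = 4.79e-05). With dexamethasone its log2 fold change was 0.37 ± 0.06 (edgeR adjusted p = 5.53e-05). CEM cells gave 0.26 ± 0.06 with prednisolone (adjusted p = 0.00274). In the knockout it was 0.30 ± 0.09 (edgeR adjusted p = 0.0249). That call was lost without replicate 3 of the controls (0.23, adjusted p = 0.0634) or replicate 2 or 3 of the treated group (0.27, adjusted p = 0.0948, and 0.28, adjusted p = 0.0854), and with replicate number as a block (adjusted p = 0.0523).

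TXN2, the mitochondrial thioredoxin, was not called in the 4 comparisons of glucocorticoid with untreated cells as designed, but alternatives called it. With prednisolone in Nalm6 it was at -0.01 ± 0.05, and at -0.24 with the dexamethasone control (edgeR adjusted p = 0.0262). With prednisolone in the knockout it was at -0.21 ± 0.09 (edgeR adjusted p = 0.0788), and at -0.31 without replicate 3 of the controls (adjusted p = 0.00188). With dexamethasone in the knockout, the set difference removed, TXN2 was at -0.29 ± 0.15 (adjusted p = 0.127) and was called in 3 of 20 alternatives. Between knockout and parental cells under dexamethasone, less the untreated difference, it was called at -0.37 ± 0.10 (adjusted p = 0.00961), but not with all 33 libraries in 1 fit (-0.34, adjusted p = 0.211). Its replicates spread widely in some groups, as in CHIR-99021-treated Nalm6, where they stood at 37.1, 38.2 and 21.6 CPM. From 34.1, 33 and 32.4 CPM in untreated parental cells, TXN2 was higher in untreated knockout cells, at 42.4, 44.5 and 34.2 CPM (0.31 ± 0.09, edgeR adjusted p = 0.0278). The call was lost without any 1 of the 3 parental libraries (0.29 to 0.33, adjusted p from 0.0719 to 0.104) and without replicate 1 or 2 of the knockout (0.28, adjusted p = 0.054, and 0.23, adjusted p = 0.0928), and with all 33 libraries in 1 fit (adjusted p = 0.0893).

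CHIR-99021 had small effects on all 9 genes. In Nalm6, 3 were called, all higher, beside 7.88% of all genes tested (3.16% higher and 4.72% lower). They were ARRDC3, which went from 46.5, 42.5 and 40.9 CPM to 49.9, 49.6 and 52.5 CPM (0.23 ± 0.05, edgeR adjusted p = 0.0314), TXN (0.22 ± 0.05, adjusted p = 0.0173) and TXNRD1 (0.14 ± 0.04, adjusted p = 0.0492). The treated libraries lay above all controls for each of these genes. TXNIP stood at 60.2, 66.2 and 71.4 CPM, below every control, and did not pass the test (-0.21 ± 0.06, edgeR adjusted p = 0.0556). Single libraries decided these calls. Replicate 3 of the treated group stood apart, with a chi-square per degree of freedom of 37.5 against replicate 1 and 39.0 against replicate 2. Replicates 1 and 2 gave 5.26. None of the 9 was called without replicate 2 or 3 of the controls or replicate 1 of the treated group, and 7 were called without replicate 3 of the treated group. With all 33 libraries in 1 fit these 3 calls were lost, and TXNIP was called instead (-0.21). Without replicate 3 of the treated group TXNIP was called (-0.26, adjusted p = 0.00113), and TXN2 changed from -0.04 (adjusted p = 0.923) to 0.19 (adjusted p = 0.00874).

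In CEM, CHIR-99021 led to 1 call, ARRDC2 (-0.24 ± 0.06, edgeR adjusted p = 0.0295), beside 10.8% of all genes tested (5.41% higher and 5.43% lower). It went from 16.0, 16.9 and 17.7 to 13.5, 14.9 and 14.0 CPM, with no overlap. The call was lost without replicate 2 or 3 of the controls (-0.23, adjusted p = 0.0853, and -0.20, adjusted p = 0.12) or replicate 1 or 2 of the treated group (-0.20, adjusted p = 0.0884, and -0.27, adjusted p = 0.0514), and in unstranded counts (-0.21, adjusted p = 0.0697). TXNIP was at 73.8, 81.9 and 81.8 CPM (0.05 ± 0.05, adjusted p = 0.548). No gene of the 9 was called between the CHIR-99021 responses of CEM at 2 µM and Nalm6 at 0.5 µM in edgeR, where 1.17% of all genes were called (0.630% higher and 0.545% lower). TXNIP was called there without replicate 3 of treated Nalm6 (0.32, adjusted p = 0.0171).

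The untreated lines differed in 6 of the 9 genes, 4 lower and 2 higher in CEM, beside 77.5% of all genes tested (40.2% higher and 37.3% lower). ARRDC4 was furthest apart (1.01 ± 0.241 against 9.01 ± 0.839 CPM; -3.17 ± 0.15, edgeR adjusted p = 2.85e-10). ARRDC3 was higher in CEM (0.44 ± 0.05) and TXNRD2 lower (-0.39 ± 0.07). ARRDC1, at -0.17 ± 0.06 (edgeR adjusted p = 0.0284), was 0.10 and not called (adjusted p = 0.0832) with the other untreated Nalm6 set as control. It also lost its call without replicate 1 or 3 of CEM (-0.17, adjusted p = 0.0723, and -0.14, adjusted p = 0.116) or replicate 2 or 3 of Nalm6 (-0.18, adjusted p = 0.0516, and -0.13, adjusted p = 0.0814). TXNIP did not pass the test between the lines (0.06 ± 0.06, edgeR adjusted p = 0.373); it did without replicate 1 of Nalm6 (0.13).

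A list of MondoA and glucose-uptake genes was read beside TXNIP, and a link between their changes and that of TXNIP was not tested. Of the 7, 6 were tested, and prednisolone in Nalm6 raised 1 and lowered 3, beside 28.7% of all genes higher and 26.1% lower. MLXIP, which encodes MondoA, went from 172 ± 7.08 to 334 ± 16.8 CPM (0.93 ± 0.04, edgeR adjusted p = 4.16e-12), and with dexamethasone from 165 ± 13.0 to 326 ± 4.77 CPM (0.94 ± 0.05). It also rose with prednisolone in the knockout (0.60 ± 0.12) and in CEM (0.22 ± 0.05), and fell with CHIR-99021 in Nalm6 (-0.25 ± 0.05, edgeR adjusted p = 0.00961) and CEM (-0.29 ± 0.06, adjusted p = 0.0143). HK2, a hexokinase that commits glucose to use in the cell, fell with prednisolone from 227 ± 3.40 to 156 ± 5.47 CPM in Nalm6, from 336 ± 26.5 to 158 ± 2.24 CPM in the knockout and from 57.6 ± 2.76 to 44.3 ± 1.00 CPM in CEM. With dexamethasone in Nalm6, HK2 stood at 203 ± 5.65 CPM untreated and 185 ± 26.0 CPM treated, and was not called (-0.17 ± 0.07, edgeR adjusted p = 0.0523). SLC2A1, the glucose transporter GLUT1, fell with prednisolone in the knockout (-0.69 ± 0.06) and CEM (-0.23 ± 0.04) and in Nalm6 with prednisolone (-0.52 ± 0.05) and dexamethasone (-0.35 ± 0.06). The prednisolone response of HK2 was more negative in the knockout than in parental cells (-0.54 ± 0.08, edgeR adjusted p = 0.00101). HK2 was already higher in untreated knockout than untreated parental cells (0.59 ± 0.06, edgeR adjusted p = 1.23e-04). With prednisolone it stood at 158 ± 2.24 CPM in the knockout and 156 ± 5.47 CPM in parental cells.

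Of 19 partners and clients of the thioredoxin system, 17 were tested in Nalm6; 10 fell and 3 rose with prednisolone, and 10 fell and 5 rose with dexamethasone. Of all genes, 26.1% fell and 28.7% rose with prednisolone, and 30.2% moved each way with dexamethasone. PRDX1, a peroxiredoxin that thioredoxin recycles, fell from 1359 ± 41.8 to 668 ± 19.2 CPM with prednisolone (-1.05 ± 0.04, edgeR adjusted p = 1.23e-12). RRM2, a subunit of ribonucleotide reductase, fell from 245 ± 8.63 to 108 ± 2.66 CPM with dexamethasone (-1.21 ± 0.04, adjusted p = 4.13e-12). MAP3K5, the kinase ASK1 that thioredoxin holds inactive, rose from 14.8 ± 0.241 to 33.9 ± 1.82 CPM with dexamethasone. In the knockout with prednisolone 8 fell and 3 rose of 17 (21.9% and 19.8% of all genes), led by RRM2 (-1.29 ± 0.07) and RRM1 (-0.78 ± 0.09). In CEM 8 fell and 5 rose of 18 (22.8% and 22.3% of all genes), and GLRX, a glutaredoxin, rose from 40.3 ± 1.27 to 75.4 ± 3.08 CPM. PRDX1 fell less with prednisolone in the knockout than in parental cells (difference 0.52 ± 0.11, edgeR adjusted p = 0.0115). The lines also differed at rest, since PRDX2 stood at 219.6 ± 5.29 CPM in CEM and 0.0984 ± 0.0673 CPM in the untreated Nalm6 libraries of the dexamethasone set.

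TXNRD1 is a known target of the antioxidant factor NRF2, and a list of NRF2 and its targets was read beside it. Of 13 genes tested in Nalm6, 8 fell and 2 rose with prednisolone, beside 26.1% and 28.7% of all genes, and 7 fell and 3 rose with dexamethasone, beside 30.2% each way. In the knockout with prednisolone 8 of 13 fell and 1 rose (21.9% and 19.8% of all genes), and in CEM 8 of 12 fell and 2 rose (22.8% and 22.3%). SLC7A11, the cystine transporter, fell in each line with prednisolone, from 31.0 ± 1.10 to 12.7 ± 0.775 CPM in Nalm6 (-1.33 ± 0.06), from 17.2 ± 2.39 to 6.04 ± 0.0979 CPM in the knockout (-1.55 ± 0.12) and from 33 ± 1.28 to 13.0 ± 0.310 CPM in CEM (-1.37 ± 0.05), all called. HMOX1, heme oxygenase 1, rose but stayed under 1 CPM in Nalm6. It passed the filter on low counts there only through the treated libraries, so among the 13 genes it could only rise. FTH1, ferritin heavy chain, rose with dexamethasone from 70.0 ± 13.4 to 155 ± 3.17 CPM.

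Of 9 NEDD4-family ligases, 8 were tested in Nalm6, and 6 rose and 2 fell with either glucocorticoid, beside 54.8% of all genes called with prednisolone and 60.5% with dexamethasone. HECW1 changed most, by 1.48 ± 0.20 with prednisolone and 1.69 ± 0.29 with dexamethasone. It stayed at low levels when treated, 1.47 ± 0.133 and 0.951 ± 0.187 CPM. WWP2 rose from 67.7 ± 3.38 to 100.3 ± 1.43 CPM with dexamethasone. In the knockout with prednisolone 2 of 7 rose and 1 fell, NEDD4L (-0.46 ± 0.08), beside 41.7% of all genes called. In CEM 3 of 9 rose and none fell, beside 45.1%. Of 5 other arrestins, 4 were tested in Nalm6 and all were called with prednisolone, 2 in each direction, beside 54.8% of all genes. ARRDC5, the remaining gene of the ARRDC series, rose from 1.65 ± 0.231 to 4.44 ± 0.294 CPM with prednisolone in Nalm6 (1.39 ± 0.13, edgeR adjusted p = 5.89e-08) and from 1.91 ± 0.155 to 5.83 ± 0.255 CPM in the knockout.

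Across the 11 group means of log2 CPM, the genes with a pattern most like TXNIP among 5220 compared were TSPYL2 (Pearson r = 0.989), MIR22HG (0.983), PDXDC2P-NPIPB14P (0.977), SLC25A24 (0.971) and NFKBIA (0.970). ARRDC2 was most like RASD1 (0.993), ARRDC3 most like CALR (0.949) and ARRDC4 most like CACNB4 (0.991). Within the set, TXNIP ran with ARRDC1 (0.89) and against TXNRD1 (-0.93), while its r with ARRDC4 was 0.02. These are descriptions over 11 points that share lines, controls and treatments, and ARRDC2 and ARRDC4 follow the difference between CEM and Nalm6.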

How the data were processed

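The authors deposited raw counts of reads per gene in the layout of the aligner STAR, 1 file for each of 33 libraries. The submitters' processing notes name Bowtie2, DESeq2 and the build hg19; the counting settings are not given in the sources used here. Of the strand columns, column 4 held 12.3 to 15.3 times the counts of column 3 and was used. Rows for reads assigned to no gene stayed out of library sizes and tests. Reads counted to no gene feature in column 4 were 18.4% to 32.7%, and multiply mapped reads 4.83% to 7.55%. Symbols came from the supplied name table.

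Groups follow the titles. On which line received which drug, the series text matches the titles, and the treatment protocol in the labels has prednisolone and CHIR-99021 exchanged between Nalm6 and the knockout. Each of the 11 groups has 3 libraries, from independent experiments per the series text for 4 of the groups; elsewhere p-values measure the spread between libraries, which may be technical. Pairs of replicates differed by more than sampling noise (chi-square per degree of freedom 1.77 to 39.0 over 33 pairs).

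Levels are CPM, counts per 1000000 gene counts. For each comparison, edgeR 4.0.16 (R 4.3.3) was run on the libraries of its groups alone, with filterByExpr, TMM, the quasi-likelihood F test and Benjamini-Hochberg adjustment over all genes tested; a call is an adjusted p under 0.05. The SE is the log2 fold change divided by the root of F. Exon lengths are merged exons of GENCODE v29. Fits were tested on simulated counts. The 9 genes and all lists were chosen with earlier results of these data known. List genes qualified for naming if called with a log2 change of at least 1, or as the 2 largest called changes of a list. Only some that qualified are named, and SAG and NQO1 in Nalm6 are among those left out. Other values of list genes were chosen after they were seen, as for MLXIP in CEM and SLC2A1 in Nalm6 with prednisolone. Alternatives were RLE, DESeq2 1.42.0, other filters, robust moderation, a replicate block, column 2, 1 fit of all libraries, leaving out each library and the other untreated Nalm6 group as control.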

Additional observations from a re-analysis of the deposited data

Results flagged for a closer look

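The effect of a treatment differed between CEM and Nalm6 or between knockout and parental cells, by a test of the difference itself, for 11 results. For prednisolone in the knockout minus parental cells the difference of log2 fold changes was -0.99 for TXNIP, 1 of 9 genes called beside 3.48% of all genes tested. For prednisolone in CEM minus Nalm6, at unequal doses, the difference was -1.35 for TXNIP, 0.94 for ARRDC2, -0.24 for ARRDC3, 0.72 for ARRDC4 and 0.36 for TXNRD1. These were 5 of 9 genes, beside 26.9% of all genes tested. The ARRDC3 call was lost without replicate 2 or 3 of untreated Nalm6 (-0.22 and -0.20) or replicate 1 of treated CEM (-0.17) and with all 33 libraries in 1 fit (-0.25). The ARRDC4 call was lost without replicate 2 of treated CEM (0.62) and with the dexamethasone control for Nalm6 (0.43). For the knockout minus parental difference under dexamethasone minus that in untreated cells, a contrast chosen after seeing the data and crossing sets, the value was -1.42 for TXNIP, -0.78 for ARRDC3, -0.43 for TXN, -0.37 for TXN2 and 0.22 for TXNRD1. These were 5 of 9 genes, beside 30.3% of all genes tested. The CHIR-99021 response of CEM minus Nalm6 gave 0 calls among the 9, beside 1.17%. The TXN2 call was lost with all 33 libraries in 1 fit (-0.34). The TXNRD1 call was lost without replicate 1 of untreated Nalm6 (0.20), replicate 3 of the treated knockout (0.21) or replicate 2 of treated Nalm6 (0.22).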

How the results depend on the processing

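The 62 called results on the 9 genes had 981 alternatives; 924 kept direction and call, 56 lost the call and 1 reversed, and 14 results lost a call at least once. The TXNIP rise under glucocorticoids and its difference between knockout and parental cells kept direction and call in every alternative run. Same-number correlations of replicates were weak, from -0.12 to 0.09. For prednisolone in Nalm6 and between the untreated Nalm6 sets, though, 5 of 6 libraries were closest to their own number, so pairing there is not excluded. The replicate block moved the count of called genes for CHIR-99021 in Nalm6 from 3 to 1, and no other count by over 1.5 times. With all 33 libraries in 1 fit the count was 1 too, but the 3 called genes lost their calls and TXNIP was called, and 0 to 7 leaving out single libraries. The count between untreated knockout and parental cells was 2, 4 with no filter on low counts, and 1 to 3 leaving out single libraries. For CHIR-99021 in CEM it was 1, 2 with no filter or robust moderation, 0 in column 2, and 0 to 1 leaving out single libraries. For the prednisolone response of knockout minus parental it was 1, 2 with the dexamethasone control for parental cells, and 1 to 2 leaving out single libraries; for the CHIR-99021 response of CEM minus Nalm6 it was 0, 1 with no filter, and 0 to 1 leaving out single libraries. RLE factors moved no median of all genes by over 0.1.

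Reversed values, besides ARRDC1 in CEM against the other Nalm6 controls (0.10), belong to results that were not called. In column 2 they were 0.02 for TXNRD1 in the untreated knockout, 0.05 for TXNIP and 0.03 for ARRDC2 between untreated Nalm6 sets, and 0.01 for TXNRD2 in the dexamethasone difference of knockout and parental cells. In 1 fit they were 0.01 for TXNIP between the sets and 0.01 for that TXNRD2 value. With the dexamethasone control for prednisolone in Nalm6 (chosen after seeing the data), reversed values were -0.27 for ARRDC4, 0.05 for TXN2 and -0.08 for TXNRD2 in knockout minus parental, and 0.14 for ARRDC1 and 0.15 for TXN2 in CEM minus Nalm6. Leaving out single libraries gave these ranges. CHIR-99021 in Nalm6: TXN2 -0.19 to 0.19. Prednisolone in Nalm6: ARRDC2 -0.01 to 0.07, TXN -0.08 to 0.05, TXN2 -0.07 to 0.02. Dexamethasone in Nalm6: TXN -0.13 to 0.03, TXN2 -0.08 to 0.13. Untreated knockout: TXNRD1 -0.06 to 0.04, TXNRD2 -0.08 to 0.03. Prednisolone in the knockout: ARRDC3 -0.13 to 0.05. CHIR-99021 in CEM: ARRDC4 -0.16 to 0.17, TXN2 -0.12 to 0.14, TXNRD1 -0.01 to 0.03. Prednisolone in CEM: ARRDC4 -0.08 to 0.24, TXN2 -0.18 to 0.05. Untreated CEM against Nalm6: TXNIP -0.01 to 0.13. Untreated sets: TXNIP -0.08 to 0.04. Prednisolone, knockout minus parental: ARRDC3 -0.17 to 0.00, ARRDC4 -0.06 to 0.09, TXNRD2 -0.06 to 0.07. Prednisolone, CEM minus Nalm6: TXN2 -0.16 to 0.08, TXNRD2 -0.08 to 0.01. CHIR-99021, CEM minus Nalm6: ARRDC1 0.00 to 0.11, TXN2 -0.20 to 0.19. Dexamethasone difference: TXNRD2 -0.09 to 0.04. The cause of these changes was not tested. Of the 9 genes, ARRDC4 in CEM has the fewest counts. Counts over the gene lists were made with the designed controls only.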
